A study of Bos taurus with 8 samples.

Results

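Toll-like receptors are innate immune receptors that recognise microbial lipids, proteins and nucleic acids. Those of the cell surface bind bacterial products, those of endosomes bind nucleic acids, and most of them signal through the adaptor MYD88 to NF-kB and interferon regulatory factors. In the lung they are best known from macrophages, neutrophils and epithelium. Transcripts of 8 Toll-like receptors (TLR2, TLR3, TLR4, TLR5, TLR7, TLR8, TLR9 and TLR10), of MYD88 and of the lipopolysaccharide co-receptor CD14 were followed here. All array probes whose transcript accession belongs to 1 of these 10 genes were taken, which gave 27 of 43653 probes and 10 of the 11054 genes that could be named on the array. A probe was tested when its signal was well above background, as called by the scanner software, on at least 4 of the 8 arrays. The test covered 22 of the 27 probes and 9 of the 10 genes, and TLR10 had no tested probe.

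The study compared 4 cloned Holstein calves with respiratory failure and 4 healthy, naturally conceived Holstein calves. Lung RNA of each animal was hybridised to 1 bovine 1-colour array. According to the design text, the clones died within 4 days of birth and the normal calves were slaughtered at 4 days, while the titles give 4 days for every animal. The labels do not say how many donor cell lines the clones came from. The lung marker genes SFTPC, SFTPB, SFTPA1, NKX2-1 and SCGB1A1 were well above background in all 8 animals. All clones lay on 1 slide and all normal animals on another, so slide and group cannot be told apart. The Y-linked transcripts USP9Y and DDX3Y were detected in clones 2, 3 and 4 but not in clone 1 or any normal animal. Sex and group therefore largely coincide, and the part of sex in the differences was not tested.

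Values are log2 signals relative to the 75th percentile of the same array, and a difference is the clone mean minus the normal mean. The share of spots called above background was 78.8% to 80.6% for clones and 80.4% to 83.5% for normal animals. On this scale the 7 spike-in controls detected on all arrays were higher in clones by a median of 0.68, so a change common to all lung transcripts is not measured. The clones varied far more than the normal animals. Clone 1 lay above every normal animal at 32.2% of the 35635 tested probes and below every one at 43.3%, clone 2 above at 34.1% and below at 35.5%, clone 3 above at 42.3% and below at 36.7%, and clone 4 above at 35.9% and below at 35.9%. In whole lung RNA, fewer cells of a type and less RNA per cell cannot be told apart.

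None of the receptor, co-receptor and adaptor transcripts passed the test of clones against normal animals. Of the 22 probes 0 had an adjusted p under 0.05 (limma with Benjamini-Hochberg adjustment over all tested probes, lowest 0.205), and 3 had an unadjusted p under 0.05, both probes of TLR8 and 1 of MYD88. Over all tested probes 0.177% passed, 0.0477% higher and 0.129% lower in clones, and 13.2% had an unadjusted p under 0.05. The signs were even, with 11 probes higher and 11 lower in clones and a median difference of 0.030, against -0.021 over all tested probes. By gene, 0 of 9 passed, while 0.182% of 9866 genes did. The groups did not overlap at 2 of the 22 probes, 1 of TLR8 and 1 of MYD88, both lower in clones, against 10.1% of all tested probes, 4.75% higher and 5.37% lower in clones.

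**Figure D1:**
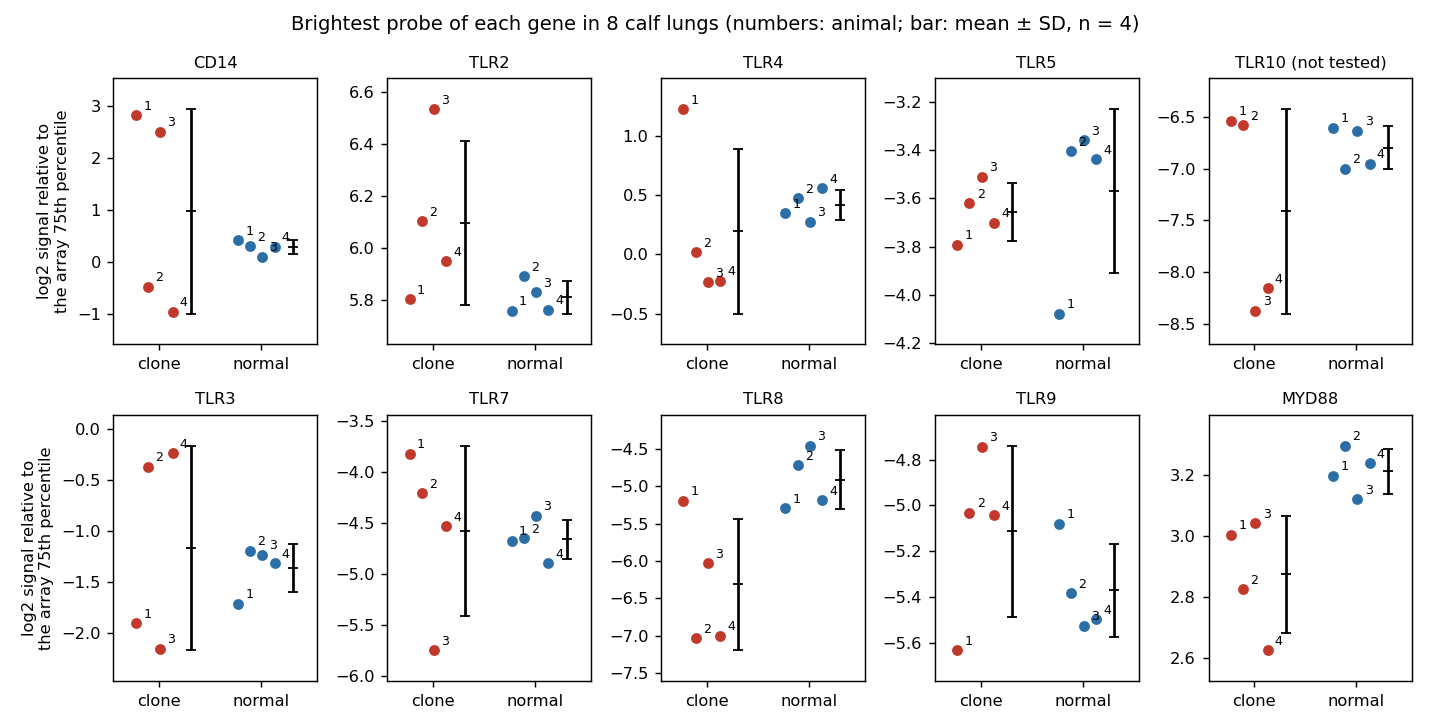
Log2 signal of the brightest probe of each gene relative to the 75th percentile of its array, with clones left and normal animals right, animal numbers beside the points and the mean ± SD of 4 animals as a bar. Clones 1 and 3 lie above and clones 2 and 4 below the normal animals for CD14, the reverse holds for TLR3, and all 4 clones lie below the normal animals for MYD88.

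CD14 differed between individual clones more than between the groups. CD14 hands bacterial lipopolysaccharide to TLR4 and is a marker of monocytes and macrophages. Its brighter probe (A_73_116002) measured 2.83, -0.48, 2.51 and -0.96 in clones 1 to 4, against 0.42, 0.30, 0.097 and 0.30 in normal animals 1 to 4. Clones 1 and 3 were above and clones 2 and 4 below every normal animal. Against the normal mean, clone 1 was 5.84-fold and clone 3 4.69-fold higher, and clone 2 was 1.69-fold and clone 4 2.35-fold lower. The second probe (A_73_P108626) placed the animals the same way, at 0.22, -2.05, 0.11 and -2.32 in the clones and -1.50, -1.51, -1.81 and -1.59 in the normal animals. CD14 spanned 13.7-fold among the clones on the first probe and 5.83-fold on the second.

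With clones on both sides, the group difference in CD14 was not resolved. The clones averaged 0.97 ± 1.97 and the normal animals 0.28 ± 0.13 on the first probe (SD, n = 4 each), a difference of 0.69 (95% interval -1.21 to 2.60, limma adjusted p = 0.776). The second probe differed by 0.59 (-0.75 to 1.94, adjusted p = 0.725). Leaving out 1 animal at a time gave differences of 0.078 to 1.34 on the first probe.

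TLR2, the receptor for bacterial lipoproteins, had 4 probes, and 3 of them followed the order seen for CD14. The probe A_73_115997 measured 1.21, -1.18, 0.76 and -1.19 in clones 1 to 4, against 0.36, 0.16, 0.33 and 0.37 in the normal animals. The probe A_73_P101506 measured -2.80, -4.68, -1.58 and -5.50 in the clones, against -3.27, -3.33, -3.26 and -3.21 in the normal animals. On both, and on the dimmest probe (A_73_P103071), clones 1 and 3 were above and clones 2 and 4 below every normal animal. The dimmest probe was not well above background in clone 4. The clones spanned 5.29-fold, 15.1-fold and 29.2-fold on these 3 probes, the last a value limited by background in clone 4.

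The brightest TLR2 probe (A_73_P215177) behaved otherwise. It measured 5.80, 6.10, 6.53 and 5.95 in the clones, against 5.76, 5.89, 5.83 and 5.76 in the normal animals. Clone 1 was within the normal range and the other 3 clones above it, and its clones spanned only 1.66-fold. Its difference was 0.29 (95% interval -0.16 to 0.73, limma adjusted p = 0.585), while the other 3 probes differed by -0.40, -0.37 and -0.63 (adjusted p between 0.806 and 0.880). The sign of the brightest probe also turned with quantile normalization, to -0.074, so no direction can be given for TLR2 as a gene. The probe sequences were not used here, and which transcripts each probe binds was not tested.

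TLR4, the receptor for lipopolysaccharide, was highest in clone 1 on each of its 3 probes. The first (A_73_105309) measured 1.22, 0.019, -0.23 and -0.22 in the clones, against 0.35, 0.47, 0.27 and 0.56 in the normal animals. The second (A_73_P047906) measured 0.61, -0.51, 0.55 and -1.08 in the clones, against -0.50, -0.34, -0.55 and -0.18 in the normal animals. The probes disagreed on clone 3, which was below every normal animal on the first and above every one on the other 2. The differences between the groups were -0.22, 0.29 and 0.32 (limma adjusted p = 0.829, 0.800 and 0.650). LY96, the soluble partner of TLR4, given here for that role, differed by -0.046 (adjusted p = 0.970), with clone 1 above and clones 2 and 3 below every normal animal.

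TLR5, the flagellin receptor, was the gene in which the clones agreed most on the brighter probe. That probe (A_73_P031017) measured -3.79, -3.62, -3.51 and -3.70 in the clones, against -4.08, -3.40, -3.36 and -3.44 in the normal animals. All 4 clones fell inside the normal range, which was set by the low value of normal animal 1, and the SD was 0.12 in clones and 0.34 in normal animals. The second probe (A_73_P103086) measured -5.93, -4.75, -5.94 and -4.26 in the clones, against -5.91, -5.90, -4.93 and -6.02 in the normal animals. There clones 2 and 4 were above every normal animal. The differences were -0.086 (95% interval -0.56 to 0.38) and 0.47 (-0.53 to 1.46), with adjusted p of 0.901 and 0.706 by limma.

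TLR10, a surface receptor related to TLR1 and TLR6, was at or near background. Of its 4 probes, the brightest was detected above background in 0 of 4 clones and 1 of 4 normal animals, the second in 1 clone and 1 normal animal, and the other 2 in 0 of 8 animals. The second probe (A_73_P102351) measured -6.66, -6.46, -8.69 and -8.20 in the clones, against -7.03, -6.97, -6.65 and -7.11 in the normal animals. Its level was therefore below what most of these arrays can measure. Without a filter the adjusted p of the 4 probes lay between 0.533 and 0.646 (limma).

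**Figure D2:**
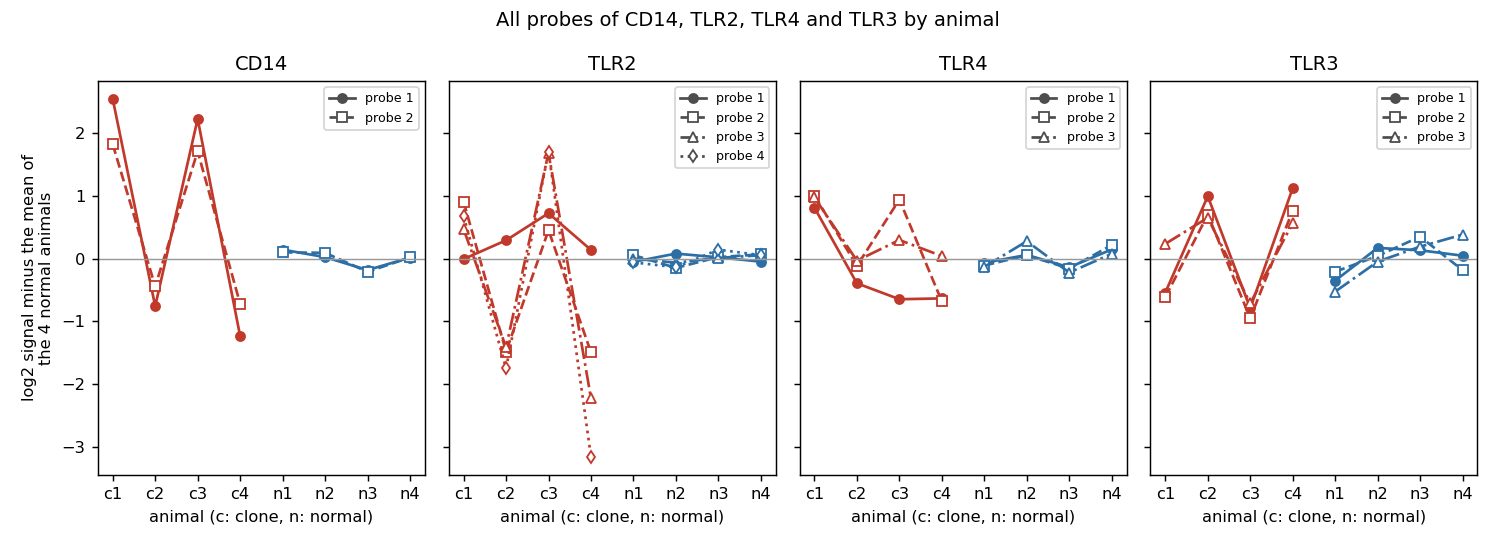
Log2 signal of every probe of CD14, TLR2, TLR4 and TLR3 minus the mean of the 4 normal animals, by animal, with clones in red and normal animals in blue and 1 line for each probe. Both CD14 probes and 3 of 4 TLR2 probes are high in clones 1 and 3 and low in clones 2 and 4, TLR3 is high in clones 2 and 4, and the brightest TLR2 probe and the first TLR4 probe depart from the other probes of their gene.

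TLR3, the endosomal receptor for double-stranded RNA, ran opposite to CD14 across the clones. It signals through the adaptor TICAM1 and not through MYD88. Its brightest probe (A_73_P369241) measured -1.90, -0.37, -2.15 and -0.24 in the clones, against -1.71, -1.19, -1.23 and -1.31 in the normal animals. Clones 2 and 4 were above and clones 1 and 3 below every normal animal, and the same held for the second probe (A_73_P035191). Against the normal mean on the brightest probe, clone 2 was 1.99-fold and clone 4 2.18-fold higher, and clone 1 was 1.45-fold and clone 3 1.73-fold lower. On the dimmest probe clones 2 and 4 were again above every normal animal, while clone 1 was within their range. The group differences were 0.20, -0.025 and 0.19 (limma adjusted p = 0.896, 0.985 and 0.865).

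The order of the clones in CD14, in 3 of 4 TLR2 probes and in the 2 brighter TLR3 probes was not confined to these genes. Clones 1 and 3 lay above and clones 2 and 4 below every normal animal at 5 of the 22 probes, against 3.86% of all tested probes. The opposite order held at 2 of the 22, against 4.21% of all. These 7 probes belong to 3 genes, and probes of 1 gene share their RNA. The order was picked out after the values were seen, so the counts are a description. They were the same with quantile normalization, with median centring and in the authors' deposited value table, and 2 and 1 with centring on the spike-ins, both CD14 probes and the brightest TLR3 probe. With normexp and 75th percentile centring they were 4 and 1, with 1 TLR2 and 1 TLR4 probe beside CD14, and with normexp and quantile normalization they were 6 and 2, with 1 TLR4 probe added.

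TLR7, an endosomal receptor for single-stranded RNA encoded on the X chromosome, was highest in clone 1 and lowest in clone 3. Its brighter probe (A_73_118687) measured -3.82, -4.21, -5.75 and -4.53 in the clones, against -4.67, -4.65, -4.43 and -4.90 in the normal animals. Clones 1 and 2 were above and clone 3 below every normal animal on both probes. The differences were 0.085 (95% interval -0.79 to 0.96) and 0.14 (-0.71 to 1.00), with adjusted p of 0.952 and 0.910 by limma. The Y-linked transcripts USP9Y and DDX3Y were detected in clones 2, 3 and 4 but not in clone 1 or the 4 normal animals. The part of sex in the values of X-linked genes was not tested.

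TLR8, the X-linked neighbour of TLR7 and also a receptor for single-stranded RNA, had the lowest adjusted p of the 10 genes and did not pass. Its brighter probe (A_73_106029) measured -5.19, -7.03, -6.03 and -7.00 in the clones, against -5.29, -4.72, -4.46 and -5.18 in the normal animals. Clones 2, 3 and 4 were below every normal animal and clone 1 was within their range. The second probe (A_73_P103101) measured -5.86, -6.79, -6.52 and -6.38 in the clones, against -5.53, -5.48, -5.86 and -5.46 in the normal animals. All 4 clones lay below, but clone 1 and normal animal 3 were tied to 2 decimals, so the lack of overlap rests on a near tie. Both probes were well above background in 4 of 4 normal animals, and in 2 and 1 of 4 clones. The normal animals alone were therefore enough for both probes to be tested. The sizes and p values below, and the lack of overlap, are limited by background in the clones. The differences were -1.40 (95% interval -2.37 to -0.43) and -0.81 (-1.33 to -0.28), with unadjusted p of 0.0102 and 0.00701 and adjusted p of 0.225 and 0.205 by limma.

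The outcome for TLR8 depended on clone 1. Without clone 1 the difference was -1.77 with an adjusted p of 0.0275 (limma), and without any other animal the test was not passed. Clone 1 was the sole clone without detected Y-linked transcripts, so without it all remaining clones had them and no normal animal did. In that comparison clone status and sex cannot be told apart for any gene, and TLR8 is X-linked. TLR8 also passed with array weights (-1.96, limma adjusted p = 0.00267). Those weights gave clone 1 only 0.12, so clone status and sex can hardly be told apart in that fit either. TLR8 passed as well with centring on the spike-ins (-2.08, limma adjusted p = 0.0205), a scale on which the median of all tested probes was -0.70. The sign of TLR8 was negative under all 19 alternatives in which it was tested, and the difference was -0.27 with normexp and quantile normalization (limma adjusted p = 0.368). These alternatives share clone signals limited by background, so the constant sign is not separate evidence.

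TLR9, the endosomal receptor for unmethylated DNA, had 1 tested probe. It measured -5.63, -5.03, -4.74 and -5.04 in the clones, against -5.08, -5.38, -5.53 and -5.50 in the normal animals. Clone 1 was below and the other 3 clones were above every normal animal. The clones averaged -5.11 ± 0.37 and the normal animals -5.37 ± 0.20 (SD, n = 4 each), a difference of 0.26 (95% interval -0.26 to 0.78, limma adjusted p = 0.683). Its other probe was well above background in 0 of 8 animals.

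MYD88, the adaptor shared by most of these receptors, had a negative difference on all 3 probes and did not pass the test. Its brightest probe (A_73_P033026) measured 3.00, 2.83, 3.04 and 2.62 in the clones, against 3.20, 3.30, 3.12 and 3.24 in the normal animals. The 4 clones lay below all 4 normal animals. The difference was -0.34 (95% interval -0.72 to 0.036, limma adjusted p = 0.431), and the other probes differed by -0.39 and -0.48 (adjusted p = 0.510 and 0.321). On those 2 probes clones 1, 2 and 4 were below every normal animal, and clone 3 was above them on 1 and within their range on the other. Among the 9 tested genes, MYD88 and TLR8 were those whose sign was the same on every probe and under every alternative. MYD88 passed with array weights (-0.47, limma adjusted p = 0.0126) and with centring on the spike-ins (-1.02, limma adjusted p = 0.0201). The weighted fit gave clone 1 little weight, so clone status and sex can hardly be told apart in it.

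**Figure D3:**
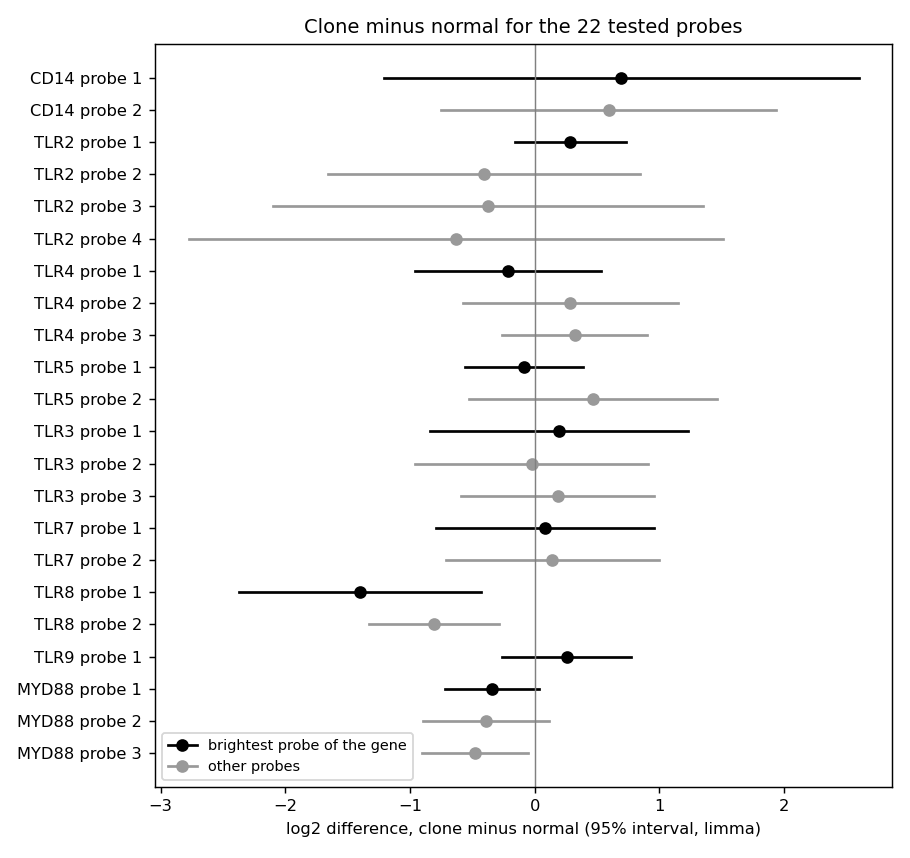
Difference between clones and normal animals on the log2 scale for the 22 tested probes, with unadjusted 95% intervals from limma, black for the brightest probe of a gene and grey for the others. The intervals of both TLR8 probes and of 1 MYD88 probe exclude 0, and those of CD14 and of 3 TLR2 probes are the widest.

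The spread among clones was larger than that among normal animals at 21 of the 22 probes, the exception being the brighter probe of TLR5. Over all tested probes this held for 90%, so the direction of the spread was that of the arrays as a whole. At 10 of the 22 probes the SD of the clones was at least 4 times that of the normal animals, against 36.8% of all tested probes. The clones spanned at least 2 on the log2 scale at 5 of the 22 probes, against 20.3% of all. The median ratio was 3.46 for the 22 probes and 3.07 for all. The highest ratios were those of TLR2 (36.4, 18.0 and 12.6) and CD14 (14.6 and 9.38). For TLR2 this came with very close normal animals, whose SD on the probe A_73_P101506 was 0.049.

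**Figure D4:**
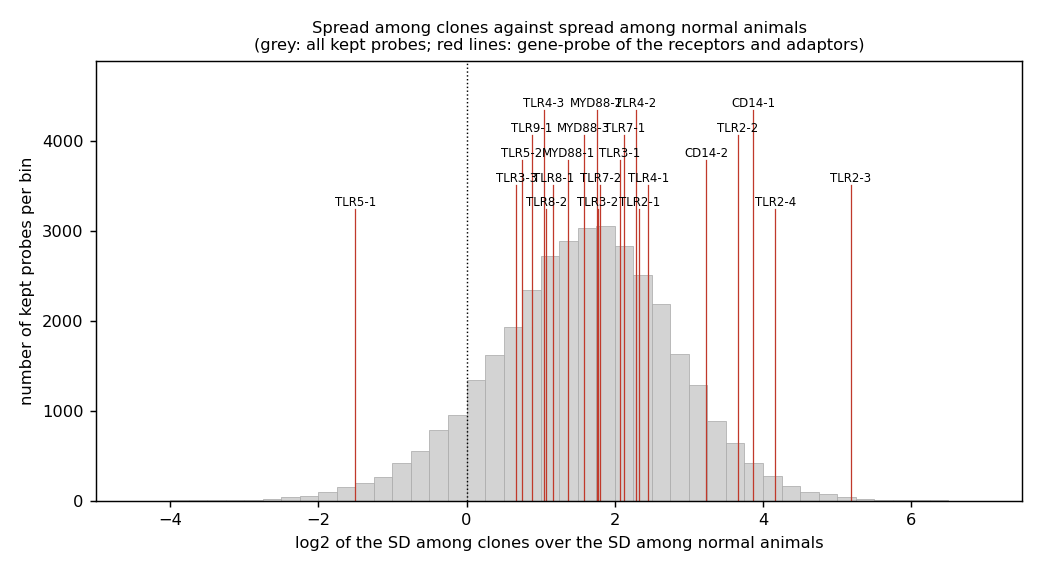
Number of tested probes by log2 ratio of the SD among 4 clones over the SD among 4 normal animals, in grey for all 35635 tested probes, with a red line for each of the 22 receptor and adaptor probes named by gene and probe number. Most red lines fall in the bulk of the grey distribution, and both CD14 probes and 3 TLR2 probes lie in its right tail.

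Markers of the cells that carry these receptors varied between the clones, and none of those tested passed between the groups. Of 12 macrophage and monocyte markers 9 were tested. By limma 5 of them had an unadjusted p under 0.05, against 13% of all genes, and 0 an adjusted one. All 9 had a negative difference, with a median of -0.69, and all were well above background in all 8 animals. Their mean was 0.99, 0.22, 1.09 and 0.079 in clones 1 to 4, against 1.36, 1.75, 1.45 and 1.49 in the normal animals. By this mean all 4 clones were below every normal animal, and clones 2 and 4 were lowest. The summed level (linear signal over the 75th percentile) was 58.8, 82.5, 217 and 64.4 in clones 1 to 4, and ranged from 175 to 265 in the normal animals. By the sum clone 1 was lowest and clone 3 was within the normal range, so the placing of clones 1 and 3 depends on the summary. The sum mostly reflects C1QA and C1QB, by far the brightest of the 9 markers. The markers also differed from each other. CD68 measured 1.71, 0.10, 1.75 and 0.25 in clones 1 to 4, and CD163 measured 1.70, -2.42, 0.32 and -2.63. For both, and for ITGAM and MSR1, clones 2 and 4 were lower than clones 1 and 3. This order did not hold for the other 5 markers. Of those, the complement subunits C1QA and C1QB were lowest in clone 1 and within the normal range in clone 3, whereas the Fc receptor FCGR1A was lowest in clone 3. For 0 of the 9 markers were clones 1 and 3 above and clones 2 and 4 below every normal animal. The part of macrophage content in CD14, TLR2 or TLR8 was not tested.

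Neutrophil markers varied between clones as well. Of 12 such markers 11 were tested, 8 with a negative and 3 with a positive difference. By limma 6 of the 11 had an unadjusted p under 0.05, against 13% of all genes, and 0 an adjusted one. Of these 6, LTF was higher in clones by 1.57 and the others were lower. Their mean was -0.15, -2.15, -0.69 and -1.81 in clones 1 to 4, against -0.39, -0.56, -0.81 and -0.13 in the normal animals. By this mean clones 2 and 4 were below every normal animal, and clones 1 and 3 within the normal range. The summed level was 118.5, 16.9, 37.9 and 37.2 in clones 1 to 4, and ranged from 32.8 to 48.6 in the normal animals. By the sum, in which S100A12 as the brightest marker weighs most, clone 1 was above and clone 2 below every normal animal. Clones 3 and 4 were within the normal range. CATHL2 was the sole tested marker not well above background everywhere. Of 9 B cell markers, on cells in which TLR9 and TLR10 are known to be expressed, 3 were tested, with a median difference of -0.081. All 7 markers of T and NK cells were tested, 6 with a negative difference and a median of -0.63. By limma 0 passed and 2 had an unadjusted p under 0.05, against 13% of all genes. CD8A, a marker of cytotoxic T cells, had the largest of these differences, -2.45 (limma adjusted p = 0.176), with all 4 clones below every normal animal. CD3D and CD4 differed by -0.026 and 0.043 (adjusted p = 0.974 and 0.947), with clone 3 above and clones 1 and 4 below every normal animal for both. The other T and NK markers differed by -1.02 to -0.48. SCGB1A1, the secretory product of airway epithelium, had the largest difference of the lung markers, -1.81 (limma adjusted p = 0.202), with clones 1, 2 and 4 below every normal animal. The other lung markers SFTPC, SFTPB, SFTPA1 and NKX2-1 differed by 0.040, 0.042, -0.11 and -0.31 (adjusted p between 0.667 and 0.953). The part of neutrophil, lymphocyte or epithelial content was not tested.

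**Figure D5:**
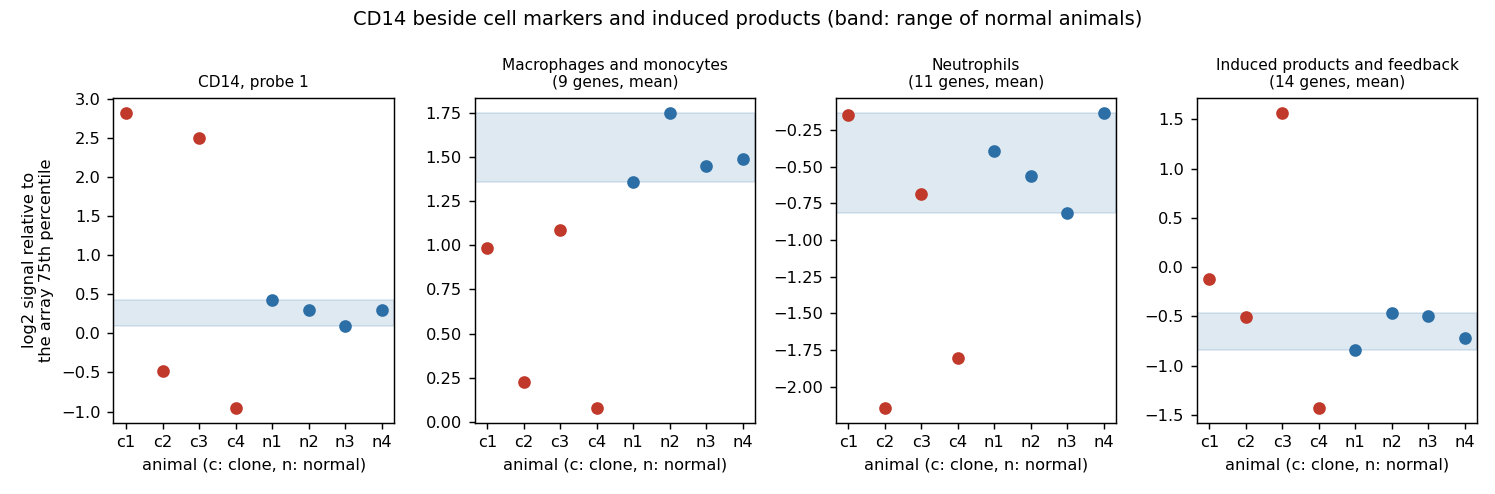
Log2 signal of the brighter CD14 probe and mean log2 signal of the macrophage, neutrophil and induced product lists by animal, with clones in red, normal animals in blue and the range of the normal animals as a band. Clones 2 and 4 are below the band for CD14 and for both marker lists, and clones 1 and 3 are above it for CD14 only among these 3.

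The partners of the receptors gave no call either. Of 70 genes of Toll-like receptor signalling outside the 10, 63 were tested, and 0 passed by limma while 7 had an unadjusted p under 0.05. Among all genes 13% had an unadjusted p under 0.05. The median difference was 0.035 with 33 of 63 positive, against -0.016 and 4774 of 9866 for all genes.

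Among 7 tested receptors and co-receptors, 2 had a positive and 5 a negative difference. CD180, a receptor related to TLR4, differed by -1.91 (limma adjusted p = 0.409), with clones 1, 2 and 4 below and clone 3 above every normal animal. The lipopolysaccharide-binding protein LBP differed by -0.40 (adjusted p = 0.651) and the lipopeptide receptor subunit TLR6 by 0.24 (adjusted p = 0.705).

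Of 6 genes of receptor folding, trafficking and processing, 5 had a negative difference. UNC93B1, the chaperone that takes TLR3, TLR7, TLR8 and TLR9 to endosomes, measured -0.67, -1.77, -1.23 and -1.48 in the clones, against -0.72, -0.37, -0.60 and -0.59 in the normal animals. Clone 1 was within the normal range and the other 3 clones below it, the same placing as on the brighter TLR8 probe. Its difference was -0.72 (limma adjusted p = 0.270), and -0.93 without clone 1 (adjusted p = 0.0309). Without clone 1, clone status and sex cannot be told apart, as for TLR8. The receptor-cutting proteases CTSL and CTSS differed by 1.18 and -0.16 (adjusted p = 0.527 and 0.770). LGMN, another such protease, was picked after its values were seen, since clones 1 and 3 (4.57 and 4.62) were above and clones 2 and 4 (2.53 and 2.50) below the normal animals, which lay between 3.77 and 4.22.

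The groups did not overlap for 6 of the 63 pathway genes (9.52%), close to the 9.83% of all genes. These were 3 of 13 proximal adaptors and kinases and 3 of 23 downstream kinases and factors, with 0 in the other 3 lists. They were IRAK2, RIPK1 and IRAK4 in the first list and IRF7, IRF5 and TAB3 in the second. IRAK4 and TAB3, named to complete the 6, differed by -0.50 and 0.23 (limma adjusted p = 0.427 and 0.588). IRAK2, a kinase recruited by MYD88, lay above every normal animal in all 4 clones, with a difference of 0.49 (limma adjusted p = 0.317). RIPK1, a kinase of the TICAM1 branch, lay below every normal animal in all 4 clones, with a difference of -0.35 (adjusted p = 0.383). BTK, a tyrosine kinase of B and myeloid cells, differed by -1.35 (adjusted p = 0.272), with clone 1 within the normal range and the other 3 clones below it. IRF7 and IRF5, which drive interferon and cytokine genes downstream of endosomal receptors, differed in opposite directions, by 0.99 and -0.71 (adjusted p = 0.255 and 0.215), each without overlap. IKBKG, the regulatory subunit of the NF-kB kinase, differed by -0.75 (adjusted p = 0.562), with clone 1 above and the other 3 clones below every normal animal. Clone 3 was far below the other clones at -1.93. Without clone 1, IRAK2, BTK and the tyrosine kinase SYK also passed (adjusted p = 0.0441, 0.0279 and 0.0255), and no pathway gene passed without any other animal. These calls carry the same limit as that of TLR8, since clone status and sex cannot be told apart without clone 1, and BTK is X-linked.

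The products that these receptors are known to induce varied most in clone 3. The mean of 14 such genes was -0.12, -0.51, 1.57 and -1.43 in clones 1 to 4, against -0.84, -0.47, -0.50 and -0.71 in the normal animals. By this mean clones 1 and 3 were above and clone 4 below every normal animal. The difference was positive for 9 genes and negative for 5, with a median of 0.46. Among the 5, TNF, IL10 and ICAM1 differed by -1.36, -0.62 and -0.26 (limma adjusted p = 0.658, 0.547 and 0.904). For each of them clones 1, 2 and 4 were below every normal animal. Clone 3 was above every normal animal for TNF and ICAM1 and within their range for IL10. These 3 genes were named after their values were seen. Clone 3 stood out for IL6, which measured -1.17, -2.32, 3.20 and -3.18 in the clones, against -2.17, -2.84, -1.89 and -2.81 in the normal animals, a gene named after its values were seen. The prostaglandin synthase PTGS2 differed by 1.70, the chemokine CCL2 by 1.92 and the NF-kB cofactor NFKBIZ by 1.35 (limma adjusted p = 0.252, 0.255 and 0.436). For each of these 3, clones 1, 2 and 3 were above every normal animal and clone 4 within their range.

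The named genes whose profiles over the 8 arrays were closest to a receptor or adaptor were found by the root mean square difference after centring each on its own mean. Each gene was taken by its brightest tested probe. For CD14, whose SD over the arrays was 1.34, they were the chromatin protein HMGA1 at 0.39 and ASMT, an enzyme of melatonin synthesis, at 0.41. For TLR3, with an SD of 0.68, they were ABI2 and RFX7, both at 0.16. For TLR7, with an SD of 0.56, they were CCDC43 at 0.13 and MINDY1 at 0.14. For TLR4, with an SD of 0.48, they were CAPZA2 and MRPS16, both at 0.11. For TLR9, with an SD of 0.31, they were CHIC2 at 0.093 and SNAPC1 at 0.10. On their brightest probes the profiles of TLR2, TLR5 and MYD88 varied less (SD 0.26, 0.24 and 0.23). Their closest genes were NUB1 at 0.061, TSPAN16 at 0.085 and RPF1 at 0.064. The other TLR2 probes had SDs of 1.27, 1.78 and 2.22 among the clones and were not compared. TLR8 was not compared, since it was not well above background on every array.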

How the data were processed

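Lung RNA of 8 calves was measured on 1-colour arrays, with each animal's group and number read from its title. Per the submitters' processing notes, Agilent Feature Extraction 10.7 was used, and per the file headers the authors' scanner files hold background-subtracted spot intensity without normalization between arrays. The authors' deposited value table holds a log2 value per probe whose columns were made alike by a step not given in the sources used here, and it served as an alternative. Flags (another deposited column, 0 or 1) marked detection and outliers.

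Control spots and between 2 and 21 outlier spots per array were left out, and no spot was saturated. Log2 processed intensity was centred on the 75th percentile of each array and averaged per probe. Accessions were matched without versions to bovine RefSeq genes of assembly ARS-UCD2.0, which named 23492 of 43653 probes. The array design uses an older build, so no coordinates are given. Of all probes 35635 were tested. A gene was represented by its brightest tested probe. The test was that of limma 3.58.1 under R 4.3.3 (lmFit, eBayes, 2-sided, group as the sole term), with Benjamini-Hochberg adjustment over all tested probes and a threshold of 0.05. The fit was tested on simulated data. The number of arrays limits precision.

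The 10 genes and the lists were chosen with earlier results of these data known. Named genes were the 10, plus up to 3 genes of each pathway list with the smallest p. Alternatives changed the scaling, background correction, filter, variance model, probe summary and the animals included.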

Additional observations from a re-analysis of the deposited data

Results flagged for a closer look

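Among the 10 genes, 54 sets of 4 values (27 probes in 2 groups) were screened for a value far from the other 3, and 2 were found, both for TLR5 in normal animals. Chance marks about 1 in 20 such sets. On the brighter TLR5 probe normal animal 1 was the lowest at -4.08, with the next normal animal at -3.44. On the dimmer TLR5 probe normal animal 3 was the highest at -4.93, with the next at -5.90. Both probes were well above background in all 8 animals, and the 2 probes mark different animals.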

How the results depend on the processing

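With 4 animals in each group, dim probes (TLR8, TLR10, CTSL and the dimmest of TLR2, TLR3 and TLR7) are limited by background in some animals. Of the 20 alternatives for the 9 tested receptor and adaptor genes (19 for TLR8, which the filter on all 8 arrays removed), 153 values kept their direction and their side of the threshold. The count of changed probes, 63 as reported (17 higher and 46 lower in clones), was 10230 with centring on the spike-ins (66 higher, 10164 lower), 11147 under array weighting (5442 higher, 5705 lower), 146 for eBayes with trend and robust options (86 higher, 60 lower), 17 with a filter on all 8 arrays, 25 with normexp and quantile normalization, 0 with normexp and 75th percentile centring (limma, 2278 probes at an unadjusted p under 0.05) and 13 with the replicate block. Without 1 animal it ranged from 17 to 2562, the highest when clone 1 was left out. In that comparison clone status and sex cannot be told apart. The count of changed probes was 451 when clone 3, 32 when clone 4, and 18, 23, 31 and 17 when normal animals 1 to 4 were left out in turn. The count of changed receptor and adaptor genes, 0 as reported, was 3 with centring on the spike-ins (MYD88, TLR5, TLR8) and 4 with array weights (MYD88, TLR3, TLR4, TLR8), and ranged from 0 to 1 without 1 animal. That of pathway genes, also 0, was 13 and 18 under the same settings and ranged from 0 to 4. Array weights gave clones 1 and 3 weights of 0.12 and 0.099, against 1.55 to 4.27 for the other arrays, so that fit rests on the other 6 animals. Its clone side is mostly clones 2 and 4, both with Y-linked transcripts, so clone status and sex can hardly be told apart in it. Centring on the spike-ins moved the median of all probes by -0.68, by construction of the scale. Normexp with 75th percentile centring moved it by -0.30, and the cause was not tested.

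Signs turned as follows. TLR2 was -0.074 with quantile normalization, -0.39 with centring on the spike-ins, -0.034 with normexp and quantile normalization, -0.075 in the authors' deposited value table and -0.28 as the mean of its probes. TLR3 was -0.48 with the spike-ins, -0.066 with normexp and 75th percentile centring, -0.069 without clone 2 and -0.11 without clone 4 (range without 1 animal -0.11 to 0.53). TLR7 was -0.60 with the spike-ins, -0.64 with normexp and 75th percentile centring, -0.17 without clone 1 and -0.039 without clone 2 (range -0.17 to 0.48). TLR9 was -0.42 and -0.70 under those same 2 scalings. CD14 was -0.77 with array weights, and TLR4 and TLR5 were 0.13 and 0.19 as the mean of their probes. Beyond the construction of the spike-in scale, the cause of these turns was not tested. The normexp settings used the median spot signal, a choice made after seeing the data; normexp on the mean signal was not run. Same-numbered animals did not deviate together (correlations of 0.092, 0.099, -0.20 and -0.099 for numbers 1 to 4), so the numbers are not a pairing, and the replicate block changed no call among the 9 genes.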
